A study of Mus musculus with 12 samples.

Results

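Immediate early genes are the first genes that a cell transcribes after a stimulus, since their induction needs no new protein. Calcium entry, growth factors and stress reach them through kinase cascades and through transcription factors such as CREB and SRF that are already bound or ready to bind at their promoters, and their messenger RNA is short lived. In the retina they are known for responding to light and to injury. These 10 genes were followed here in whole retinas of mice in which *Otx2* was targeted in photoreceptors, and they were taken by name with earlier results of the same libraries known: *Fos*, *Fosb*, *Jun*, *Junb*, *Egr1*, *Egr2*, *Nr4a1*, *Npas4*, *Ier2* and *Arc*. They are 10 of 54146 genes counted, and 9 passed the filter on low counts, all but *Egr2*. The members were chosen by their CPM in the same 12 mice, P32 against P30 above all, so these levels are given as a description, without p-values.

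RNA of the whole retina, retinal pigmented epithelium (RPE) included, was sequenced from 1 eye of each of 12 mice kept on a 129/SV background under a cycle of light and dark. Mice 1 to 3 were P30 controls, whose labels give neither Cre nor tamoxifen status. Mice 4 to 6 (P32), 7 to 9 (P34) and 10 to 12 (P38) were labelled cKO and carried *Crx-CreERT2*, a tamoxifen-dependent Cre driven by the promoter of the photoreceptor gene *Crx*, with *Otx2* flox/flox, a homeobox factor gene of photoreceptors, bipolar cells and RPE. They were killed 2, 4 and 8 d after a single tamoxifen injection at P30. All mice were killed at the same hour of the day, according to the methods of the study. Age, tamoxifen and deletion changed together between P30 and the later groups, so their parts cannot be told apart. In whole retina, fewer cells of a type and less RNA per cell cannot be told apart either. Each library came from its own mouse, and the 3 mice of a condition are its replicates.

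Counts on genes came to 29701483 to 60145034 per mouse, and 3 counts corresponded to 0.0473 to 0.102 counts scaled to 1000000 per library (CPM), which covers counting error only. *Otx2* counts over the whole gene were 293 to 328 CPM in P30 mice and 307 to 377 CPM in cKO mice, and since Cre removes a single coding exon, this count does not check the deletion. In its own analysis the study reported fewer reads on that exon relative to a neighbouring exon at P32, P34 and P38. The conditions named here are those of the labels. Rod, cone, bipolar, amacrine and Müller glia markers were all detected in each condition. The 5 rod markers summed to 59319 to 65477 CPM in P30 mice and, with no overlap, to 53985 to 58731 CPM in P32 mice, 67322 to 90451 CPM in P34 mice and 65922 to 99717 CPM in P38 mice. The 4 lens markers summed to 462 to 33722 CPM in P30 mice (highest in mouse 3) and 649 to 39415 CPM in P32 mice (lowest in mouse 6). They summed to 250 to 671 CPM in P34 mice and 4804 to 12361 CPM in P38 mice. *Xist*, the RNA of the inactive X chromosome, was high in all 3 P30 mice, in P32 mice 5 and 6, in P34 mouse 9 and in P38 mouse 12, and was at most 3.28 CPM in the other 5 mice. Mice 4, 7 and 10 had the lowest share of reads on no gene of their condition (6.53 to 8.67%, against 9.95 to 13.7% in the other 9 mice).

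The promoter letters of 4 of these genes are shown because 2 of them (*Fos* and *Nr4a1*) had no overlap between P32 and P30 mice while the others (*Junb* and *Jun*) did. Each run is the 250 bases before the gene's start in RefSeq (GRCm38.p6), 5′ to 3′ on the gene's strand. Capitals mark TGACG or its reverse complement CGTCA, the core of the cAMP response element bound by CREB family factors. The window of *Fos* is chr12:85473640-85473889 on the plus strand, that of *Nr4a1* chr15:101266596-101266845 on the plus strand, that of *Junb* chr8:84978749-84978998 on the minus strand and that of *Jun* chr4:95052223-95052472 on the minus strand. None of these windows overlaps an annotated exon of its own gene, and exons of other genes were not checked.
Fos: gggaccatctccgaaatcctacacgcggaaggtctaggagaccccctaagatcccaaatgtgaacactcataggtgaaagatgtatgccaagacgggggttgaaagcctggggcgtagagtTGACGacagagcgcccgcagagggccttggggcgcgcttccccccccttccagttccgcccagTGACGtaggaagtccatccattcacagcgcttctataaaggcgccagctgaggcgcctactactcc
Nr4a1: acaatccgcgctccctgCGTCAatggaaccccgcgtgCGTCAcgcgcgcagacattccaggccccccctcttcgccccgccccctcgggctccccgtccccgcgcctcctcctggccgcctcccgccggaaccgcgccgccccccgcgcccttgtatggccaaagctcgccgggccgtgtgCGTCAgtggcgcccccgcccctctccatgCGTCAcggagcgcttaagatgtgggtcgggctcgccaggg
Junb: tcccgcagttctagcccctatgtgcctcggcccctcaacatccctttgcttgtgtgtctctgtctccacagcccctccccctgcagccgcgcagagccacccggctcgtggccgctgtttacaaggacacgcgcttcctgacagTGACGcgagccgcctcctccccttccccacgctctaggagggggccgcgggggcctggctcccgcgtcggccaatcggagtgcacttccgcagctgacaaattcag
Jun: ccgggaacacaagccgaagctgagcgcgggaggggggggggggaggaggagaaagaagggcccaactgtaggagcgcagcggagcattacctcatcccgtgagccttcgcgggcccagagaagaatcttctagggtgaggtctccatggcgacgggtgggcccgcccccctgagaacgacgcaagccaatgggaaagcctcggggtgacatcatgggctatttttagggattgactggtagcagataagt

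The *Fos* window held 2 such cores, 66 and 129 bases before the start, and the *Nr4a1* window held 4, at 40, 69, 213 and 233 bases. The *Nr4a1* start in RefSeq lies within a longer gene model (chr15:101254269-101274795), so this is 1 of its promoters. *Junb* held 1 core, 106 bases before the start, and *Jun* held none. Among genes not shown, *Npas4* held 2 (169 and 179 bases before the start) and *Fosb* held 1 (60 bases), and both overlapped P30 at P32. *Egr2* held 2 in some of its 5 windows and none in the others. Among 32851 RefSeq promoters of the same length, 17.8% held TGACG on either strand. The full palindrome TGACGTCA was in none of the windows of the 7 genes that the RefSeq table lists, and in 1.55% of all promoters. A CArG box, the SRF motif, was in 4 of the 5 windows of *Egr2* (3 of these 4 overlap one another), in none of the other 6 genes, and in 1.47% of all promoters. The EGR site GCGNGGGCG was found once in *Fosb*, 50 bases before its start, and once in *Nr4a1*, 60 bases before it, against 4.7% of all promoters. These are matches of letters within 250 bases and say nothing of binding. *Egr1*, *Arc* and *Ier2* are not in the table.

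At P32, 2 d after tamoxifen, *Fos*, *Egr1* and *Nr4a1* were higher in every mouse than in any P30 mouse. Among these, *Egr1* showed the largest ratio of means, *Fos* came next and *Nr4a1* showed the smallest. By P38 the means of all 3 were below those of P30, for *Egr1* only with P30 mouse 3 included (log2 fold change -0.28 with it and 0.86 without it). The other 6 genes tested overlapped the P30 mice at P32. None of the 9 genes tested was called at any age by edgeR's quasi-likelihood test, where a call needs an adjusted p no greater than 0.05 together with a log2 fold change past 0.5 in either direction. Of all 18628 genes, 0% were called at P32, 0% were called higher and 0.66% lower at P34, and 0% were called at P38.

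**Figure D1:**
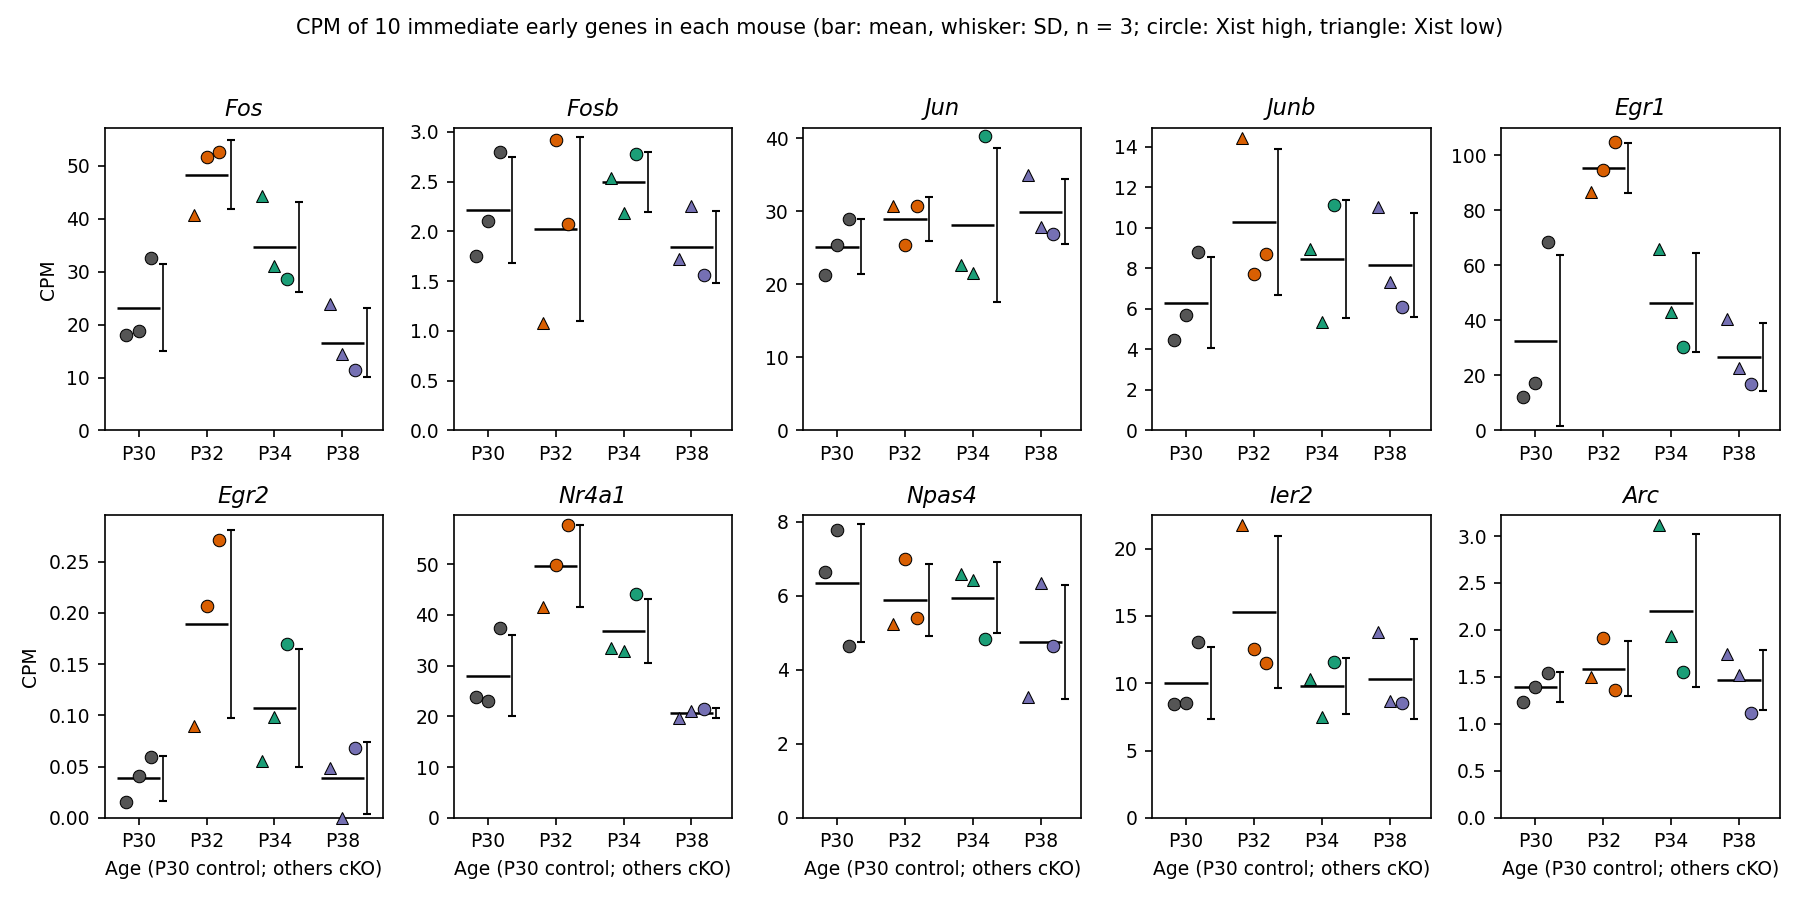
CPM of each immediate early gene (vertical axis, each panel from 0) in each of 12 mice by age (horizontal axis). Each point is 1 mouse, the horizontal bar is the mean and the whisker the SD of 3 mice, and circles are mice with high *Xist*, triangles mice with low *Xist*. For *Fos*, *Egr1* and *Nr4a1* the 3 P32 points lie above all P30 points, and P30 mouse 3 is the highest P30 mouse for each of them.

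*Fos*, a partner of Jun proteins in the AP-1 transcription factor (chr12:85473890-85477273), measured 18.1, 18.7 and 32.7 CPM in P30 mice 1, 2 and 3. At P32 it measured 40.8, 51.7 and 52.5 CPM in mice 4, 5 and 6, all above the P30 values. At P34 it measured 44.4, 31.0 and 28.5 CPM in mice 7, 8 and 9, which overlapped both groups. At P38 it measured 23.9, 14.4 and 11.5 CPM in mice 10, 11 and 12, where mice 11 and 12 were below every other mouse of the series. The mean was 2.09 times that of P30 at P32 (log2 fold change 1.06 ± 0.29 SE, n = 3 per condition). It was 0.58 ± 0.29 at P34 and -0.48 ± 0.29 at P38 on the log2 scale, and without P30 mouse 3 these were 0.90 ± 0.28 and -0.15 ± 0.28. Without P34 mouse 7 the P34 value was 0.36 ± 0.31, and at P38 it was -0.82 ± 0.28 without mouse 10 and -0.27 ± 0.30 without mouse 12. From P32 to P38 the difference was -1.54 ± 0.30, with no overlap, and from P34 to P38 -1.06 ± 0.29, again with no overlap.

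*Fosb*, whose protein takes the same place in AP-1 (chr7:19302696-19310051), overlapped between all conditions. It measured 1.75, 2.10 and 2.79 CPM in P30 mice 1, 2 and 3, and 1.08, 2.92 and 2.07 CPM in P32 mice 4, 5 and 6. The P34 mice measured 2.54, 2.18 and 2.78 CPM, and the P38 mice 1.72, 2.25 and 1.56 CPM. The lowest of the 12 values was in P32 mouse 4 and the highest in P32 mouse 5, so the P32 mice spanned the other conditions. The log2 fold changes were -0.12 ± 0.32, 0.18 ± 0.32 and -0.25 ± 0.32 (SE) at P32, P34 and P38. With 1 mouse left out the P32 value ranged from -0.48 (without mouse 5) to 0.18 (without mouse 4) and the P38 value from -0.42 (without mouse 11) to -0.06 (without P30 mouse 3).

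*Jun*, the other main subunit of AP-1 (chr4:95049034-95052222), differed little between conditions. It measured 21.3, 25.3 and 28.9 CPM at P30, and 30.8, 25.5 and 30.7 CPM at P32. P34 mice 7, 8 and 9 measured 22.6, 21.5 and 40.3 CPM and P38 mice 10, 11 and 12 measured 35.0, 27.8 and 27.0 CPM, so that P34 mouse 9 was the highest and every condition overlapped P30. Its log2 fold changes were 0.20 ± 0.22, 0.16 ± 0.22 and 0.25 ± 0.22 (SE). Without P34 mouse 9 the P34 value was -0.21 ± 0.16. An antisense gene, *Junos*, overlaps *Jun* and was at 0.517 to 1.14 CPM. The strand setting of the counting is not given in the sources used here.

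*Junb*, which forms AP-1 with weaker activation than *Jun* on many targets (chr8:84974484-84978718), measured 4.45, 5.67 and 8.80 CPM at P30 and 14.4, 7.73 and 8.72 CPM at P32. P32 mouse 4 was above all P30 mice, while mice 5 and 6 were below P30 mouse 3. At P34 it measured 8.97, 5.34 and 11.1 CPM, and at P38 11.04, 7.34 and 6.08 CPM. The mean was above P30 at each age but the groups overlapped at each, with log2 fold changes of 0.71 ± 0.35, 0.43 ± 0.35 and 0.38 ± 0.35 (SE). Without P32 mouse 4 the P32 value was 0.39 ± 0.35, without P34 mouse 9 the P34 value was 0.17 ± 0.38, and without P38 mouse 10 the P38 value was 0.11 ± 0.37. *Prdx2*, a peroxiredoxin gene on the opposite strand, overlaps *Junb* and was at 140 to 259 CPM, highest in P32 mouse 4. Its part in the *Junb* count was not tested.

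*Egr1*, a zinc finger transcription factor induced through SRF (chr18:34859823-34864984), differed widely among P30 mice. P30 mice 1, 2 and 3 measured 12.1, 17.3 and 68.6 CPM, and P32 mice 4, 5 and 6 measured 86.8, 94.6 and 104.7 CPM. The P32 mice were all above the P30 mice and lay close together, while P30 mouse 3 was far from the other P30 mice. P34 mice 7, 8 and 9 measured 66.0, 42.9 and 30.4 CPM, and P38 mice 10, 11 and 12 measured 40.5, 22.8 and 16.9 CPM. Every P34 and P38 mouse was below every P32 mouse and within the range of P30. The mean at P32 was 2.92 times that of P30 (log2 fold change 1.55 ± 0.55 SE), and without P30 mouse 3 the log2 fold change was 2.69 ± 0.40. At P38 leaving out that mouse changed the sign, from -0.28 ± 0.55 to 0.86 ± 0.37. From P32 to P38 the log2 difference was -1.83 ± 0.56.

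*Egr2*, a relative of *Egr1* that binds the same GC-rich motif (chr10:67535475-67542188), was near the limit of detection. P30 mice 1, 2 and 3 had 1, 2 and 2 counts, and P32 mice 4, 5 and 6 had 3, 8 and 11. P34 mice 7, 8 and 9 had 2, 4 and 5 counts and P38 mice 10, 11 and 12 had 2, 0 and 2. The P32 mice were at 0.0900 to 0.271 CPM and the P30 mice at 0.0158 to 0.0594 CPM, which did not overlap, but only mice 5, 6, 8 and 9 had more than 3 counts. No fold is given for it.

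*Nr4a1*, an orphan nuclear receptor induced by calcium and cAMP (chr15:101254269-101274795), measured 23.9, 22.9 and 37.4 CPM in P30 mice 1, 2 and 3. It measured 41.5, 49.8 and 57.7 CPM in P32 mice 4, 5 and 6, all above P30, and 33.5, 32.8 and 44.2 CPM in P34 mice 7, 8 and 9. In P38 mice 10, 11 and 12 it measured 19.6, 21.0 and 21.4 CPM, all below P30. No other of these genes lay above all P30 mice at one age and below all of them at another. The mean was 1.77 times that of P30 at P32, and the log2 fold changes at P32, P34 and P38 were 0.83 ± 0.19, 0.39 ± 0.19 and -0.44 ± 0.19 (SE). Without P30 mouse 3 the P34 and P38 values were 0.64 ± 0.16 and -0.18 ± 0.16, and without P34 mouse 9 the P34 value was 0.23 ± 0.20. From P32 to P38 the log2 difference was -1.26 ± 0.19, and from P34 to P38 -0.83 ± 0.19, each with no overlap.

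*Npas4*, a factor that neurons induce on calcium entry and few other stimuli (chr19:4984355-4990316), had its highest mean in P30 mice. It measured 6.64, 7.77 and 4.64 CPM in P30 mice 1, 2 and 3, and 5.25, 7.004 and 5.40 CPM in P32 mice 4, 5 and 6. The P34 mice measured 6.60, 6.42 and 4.84 CPM, and the P38 mice 3.28, 6.33 and 4.65 CPM. All conditions overlapped. The log2 fold changes were -0.11 ± 0.26, -0.09 ± 0.26 and -0.42 ± 0.26 (SE) at P32, P34 and P38. The P38 value ranged from -0.69 (without mouse 11) to -0.20 (without mouse 10), and the values at P32 and P34 turned positive without P30 mouse 2 (0.06 and 0.08).

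*Ier2* (chr8:84661331-84662852), an early gene induced by serum and growth factors, measured 8.44, 8.54 and 13.1 CPM at P30 and 21.8, 12.5 and 11.5 CPM at P32. Among P32 mice, mouse 4 alone was above every P30 mouse. P34 mice 7, 8 and 9 measured 10.3, 7.52 and 11.5 CPM, and P38 mice 10, 11 and 12 measured 13.8, 8.70 and 8.52 CPM. The log2 fold changes were 0.61 ± 0.29, -0.03 ± 0.29 and 0.05 ± 0.29 (SE), and the groups overlapped at each age. Without P32 mouse 4 the P32 value was 0.27 ± 0.26. The values at P34 and P38 changed sign with 1 mouse left out, ranging from -0.18 to 0.19 and from -0.21 to 0.28.

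*Arc*, a cytoskeletal protein of dendrites that regulates AMPA receptors (chr15:74669083-74672570), had its highest mean at P34. It measured 1.23, 1.39 and 1.55 CPM at P30 and 1.50, 1.91 and 1.36 CPM at P32. It measured 3.12, 1.94 and 1.56 CPM at P34, all above P30 though mouse 9 by only a small margin, and 1.75, 1.52 and 1.12 CPM at P38. The log2 fold change at P34 was 0.67 ± 0.28 (SE), against 0.20 ± 0.28 at P32 and 0.09 ± 0.28 at P38. Without P34 mouse 7 the P34 value was 0.33 ± 0.26. Without P32 mouse 5 the P32 value was 0.04, and the P38 value ranged from -0.05 (without mouse 10) to 0.24 (without mouse 12).

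**Figure D2:**
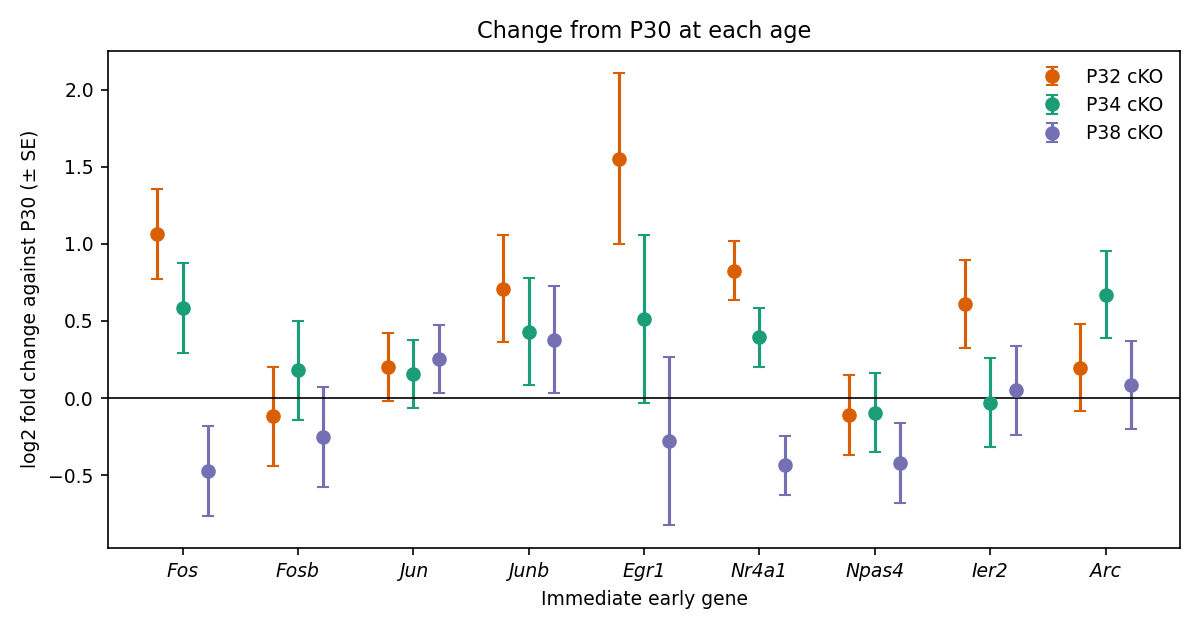
Log2 fold change against P30 (vertical axis) for 9 immediate early genes (horizontal axis) at P32, P34 and P38, from edgeR. Points are estimates and whiskers the SE from 3 mice per condition. At P32, *Egr1* (1.55), *Fos* (1.06) and *Nr4a1* (0.83) are the highest, and at P38 *Fos* (-0.48) and *Nr4a1* (-0.44) are the lowest (-0.15 and -0.18 without P30 mouse 3).

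As a list, 7 of 9 genes had a positive log2 fold change at P32, 7 at P34 and 4 at P38. The median of the 9 was 0.61, 0.39 and -0.25 at these ages, beside -0.01, -0.00 and -0.01 over all 18628 genes. With each mouse of the conditions compared left out in turn it ranged from 0.27 (without P32 mouse 4) to 0.85 (without P30 mouse 3) at P32 and from 0.12 (without P30 mouse 1) to 0.64 (without P30 mouse 3) at P34. At P38 it ranged from -0.39 (without P30 mouse 1) to 0.16 (without P30 mouse 3). At an unadjusted p under 0.05 with the same limit on size, 3 of 9 were higher at P32 (*Fos*, *Egr1* and *Nr4a1*) beside 1.13% of all genes (1.77% were lower), 1 at P34 (*Arc*) beside 0.854% (5.42% were lower), and none at P38 in either direction beside 0.805% higher and 2.66% lower. DESeq2 called 1 of these genes higher at P32 (*Nr4a1*) and none at P34 or P38 against P30. Of all genes it tested, it called 0.0486% higher and 0.0827% lower at P32, 0.0641% higher and 1.58% lower at P34, and 0.059% higher and 0.193% lower at P38. At P32, 3 of the 9 lay above all P30 mice beside 5.26% of all genes. At P34 this was 1 beside 10.4%, and at P38 it was none, while *Nr4a1* lay below all P30 mice beside 7.96%. With 1 mouse left out, the unadjusted threshold at P32 was no longer passed by *Egr1* without P30 mouse 1 (1.15) or 2 (1.25), nor at P34 by *Arc* without mouse 1, 2 or 7. Without P30 mouse 3, *Ier2* (0.85) and *Junb* (1.02) passed it at P32, *Fos* (0.90), *Egr1* (1.65) and *Nr4a1* (0.64) at P34, and *Egr1* upward and *Npas4* (-0.60) downward at P38. Leaving out other mice also added genes. At P32 *Ier2* passed without mouse 5 (0.73) or 6 (0.78) and *Junb* without mouse 5 (0.88). Downward at P38, *Fos* passed without mouse 10 (-0.82), *Nr4a1* without mouse 1 (-0.54) or 2 (-0.56) and *Npas4* without mouse 11 (-0.69). Nothing is read from these shares, since the same comparisons chose the genes.

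The cKO ages were also compared with one another, in comparisons that share mice. The genes were chosen by their CPM in these mice, P32 above all, so nothing is read from the counts and calls that follow. *Egr1* was the only one of the 9 without overlap between P34 and P32 (below P32, beside 13.6% of all genes). *Fos*, *Egr1* and *Nr4a1* were below all P32 mice at P38 (beside 13.2%), and *Fos* and *Nr4a1* below all P34 mice (beside 4.58%). For *Fos*, the order of the means was P32, P34, P30 and P38, and each neighbouring pair overlapped. *Egr1* and *Nr4a1* had the same order, in which P32 and P34 did not overlap for *Egr1* and P30 and P38 did not for *Nr4a1*. *Junb* and *Ier2* also had their highest mean at P32, with overlap throughout. None of the 9 genes was called between cKO ages by edgeR. Of all genes, 0% were called higher and 0.242% lower at P34 than at P32, 0% either way at P38 than at P32, and 0.199% higher and 0% lower at P38 than at P34. At an unadjusted p, 1 member (*Ier2*) was lower at P34 than at P32 (8.93% of all genes lower, 5.49% higher), 3 (*Fos*, *Egr1* and *Nr4a1*) at P38 than at P32 (6.23% lower, 5.68% higher) and 2 (*Fos* and *Nr4a1*) at P38 than at P34 (0.8% lower, 3.01% higher), and none was higher. *Ier2* no longer passed without P32 mouse 4 (-0.30), nor without P34 mouse 7 or 8. No member lay above all mice of the earlier age, beside 14.8% of all genes for P34 over P32, 13.3% for P38 over P32 and 5.36% for P38 over P34. DESeq2 called 2 members, *Fos* and *Nr4a1*, lower at P38 than at P32 (beside 2.41% lower and 2.85% higher of all genes it tested) and than at P34 (beside 0.033%). Without P32 mouse 6, edgeR called *Fos* and *Nr4a1* lower at P38 than at P32, and 3.69% of all genes with them, against 0% with every mouse.

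Scaled by exon length, in CPM per kilobase, the means at P30 were 9.85 ± 3.50 (SD, n = 3) for *Fos*, 8.00 ± 2.30 for *Nr4a1*, 7.90 ± 1.19 for *Jun*, 7.29 ± 6.96 for *Egr1* and 6.58 ± 1.74 for *Ier2*. These 5 differed by less than their spread. *Junb* (2.74 ± 0.97), *Npas4* (1.54 ± 0.38), *Arc* (0.455 ± 0.052) and *Fosb* (0.355 ± 0.085) followed, with *Egr2* at 0.0113 ± 0.0064. At P32 the first places on this scale were those of *Egr1* (21.3 ± 2.0), *Fos* (20.6 ± 2.8) and *Nr4a1* (14.2 ± 2.3).

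No P30 mouse had low *Xist*, so within 1 *Xist* state P32 can be set beside P30 in the mice with high *Xist* alone. In mice with high *Xist*, *Fos* measured 18.1 to 32.7 CPM at P30 (n = 3), 51.7 and 52.5 CPM in the P32 mice, 28.5 CPM in the P34 mouse and 11.5 CPM in the P38 mouse. *Egr1* in these mice measured 12.1 to 68.6 CPM at P30, 94.6 and 104.7 CPM in the P32 mice, 30.4 CPM in the P34 mouse and 16.9 CPM in the P38 mouse. *Nr4a1* measured 22.9 to 37.4, 49.8 and 57.7, 44.2 and 21.4 CPM in the same order. Among the mice with low *Xist*, *Fos* measured 40.8 CPM in the P32 mouse, 44.4 and 31.0 CPM in the P34 mice and 23.9 and 14.4 CPM in the P38 mice, so that P34 mouse 7 was above the P32 mouse. *Egr1* in the low *Xist* mice measured 86.8 CPM in the P32 mouse, 66.0 and 42.9 CPM in the P34 mice, then 40.5 and 22.8 CPM in the P38 mice. *Nr4a1* measured 41.5 CPM, 33.5 and 32.8 CPM, and 19.6 and 21.0 CPM in the same order. For these 2 genes the P32 mouse was the highest of the 5. The part of *Xist* state in these values was not tested. Lens markers were high in P30 mouse 3, the highest P30 mouse for these 3 genes, and in P32 mice 4 and 5. Their sum was 649 CPM in P32 mouse 6, the mouse with the highest *Fos*, *Egr1* and *Nr4a1* of the series. With the log2 lens sum as a covariate the P32 log2 fold changes were 1.06 ± 0.29 for *Fos*, 1.63 ± 0.54 for *Egr1* and 0.83 ± 0.20 for *Nr4a1* (SE). The part of lens RNA in these changes was not tested. The rod marker sums were below all P30 mice at P32, where these 3 genes were above them, and above all P30 mice at P34 and P38. The 4 smooth muscle markers summed to 28.8 to 196 CPM in P30 mice, 10.4 to 47.3 CPM in P32 mice, 9.06 to 13.1 CPM in P34 mice and 14.7 to 22.2 CPM in P38 mice, with no overlap with P30 at P34 and P38. At P38, where *Nr4a1* was below all P30 mice, so were the sums of 4 Müller glia markers (3280 to 3411 CPM, against 3451 to 3740 CPM at P30), 3 endothelial markers (13.1 to 16.1, against 16.6 to 18.1) and 3 blood markers (18.5 to 24.6, against 38.2 to 69.6), while 4 microglia markers were above all P30 mice (30.0 to 36.3, against 24.98 to 28.9). The part of RNA from these cell types in the values was not tested.

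Within a condition, some of these genes deviated together from mouse to mouse. Each gene's log2 CPM was expressed as its deviation from the mean of its condition, which removes differences between ages, and Pearson's r was taken over the 12 mice for all 36 pairs of the 9 genes as a description. The median r was 0.27, and 26 of the 36 were positive. *Fos* and *Egr1* had r = 0.91 (Spearman's rho 0.98, r = 0.86 without the 2 mice farthest in *Fos*), and *Fos* and *Arc* had r = 0.73. *Junb* and *Ier2* had r = 0.94 (rho 0.93, r = 0.92 without the 2 mice farthest in *Junb*), and both went with *Jun* (r = 0.76 and 0.62). *Nr4a1* was closest to *Fosb* (r = 0.61) and less close to *Fos* (0.34) and *Egr1* (0.46). *Npas4* went the other way, with r of -0.71 to *Ier2*, -0.69 to *Jun* and -0.68 to *Junb*. *Ier2* and *Junb* lie 312 kb apart on chromosome 8. All genes of a mouse share its library, its dissection and its depth.

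**Figure D3:**
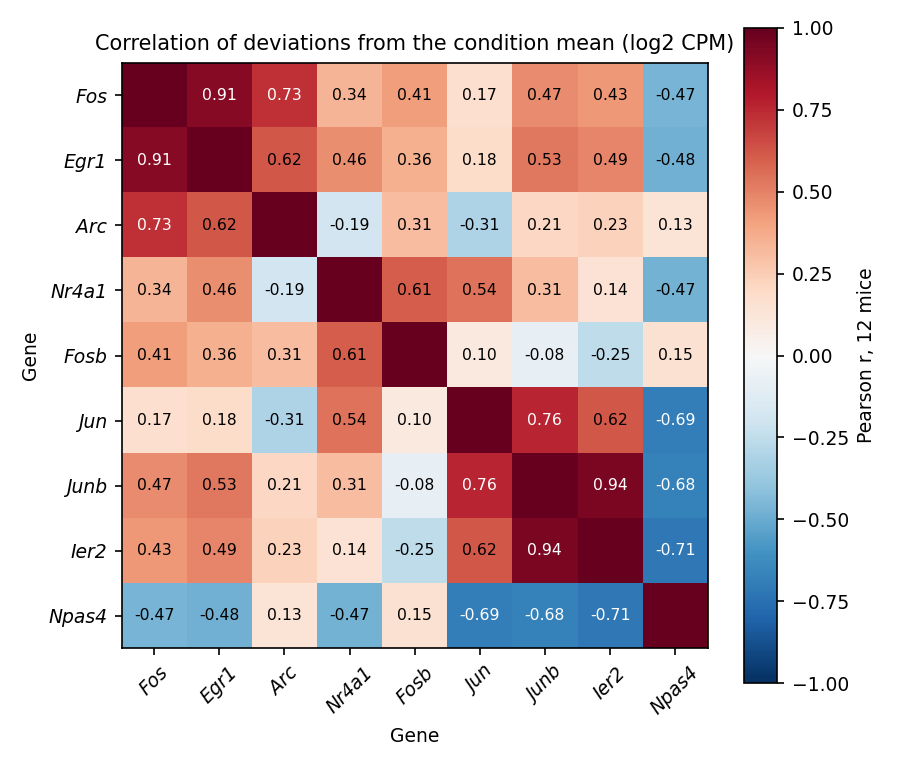
Pearson's r over 12 mice (color, from -1 in blue to 1 in red) between the deviations of each pair of immediate early genes from their condition means in log2 CPM. *Fos* and *Egr1* (0.91) and *Junb* and *Ier2* (0.94) are the highest values, and the *Npas4* row and column are mostly negative.

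P30 mouse 3 was the highest of its condition for 8 of the 9 genes, and P38 mouse 10 for 6. P30 mouse 1 and P38 mouse 12 were each the lowest of their condition for 7. P30 mouse 3, P32 mouse 6, P34 mouse 7 and P38 mouse 10 were the highest of their conditions for both *Fos* and *Egr1*. *Ier2* and *Junb* were highest in P30 mouse 3, P32 mouse 4, P34 mouse 9 and P38 mouse 10. Library measures moved with some of these deviations. The share of reads on no gene had r = -0.76 with *Ier2*, -0.70 with *Junb*, -0.57 with *Fos* and 0.05 with *Nr4a1*, and the share of reads without a unique position had r = 0.76, 0.59, 0.31 and -0.34 with the same genes (12 mice). Their part in the values was not tested.

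**Figure D4:**
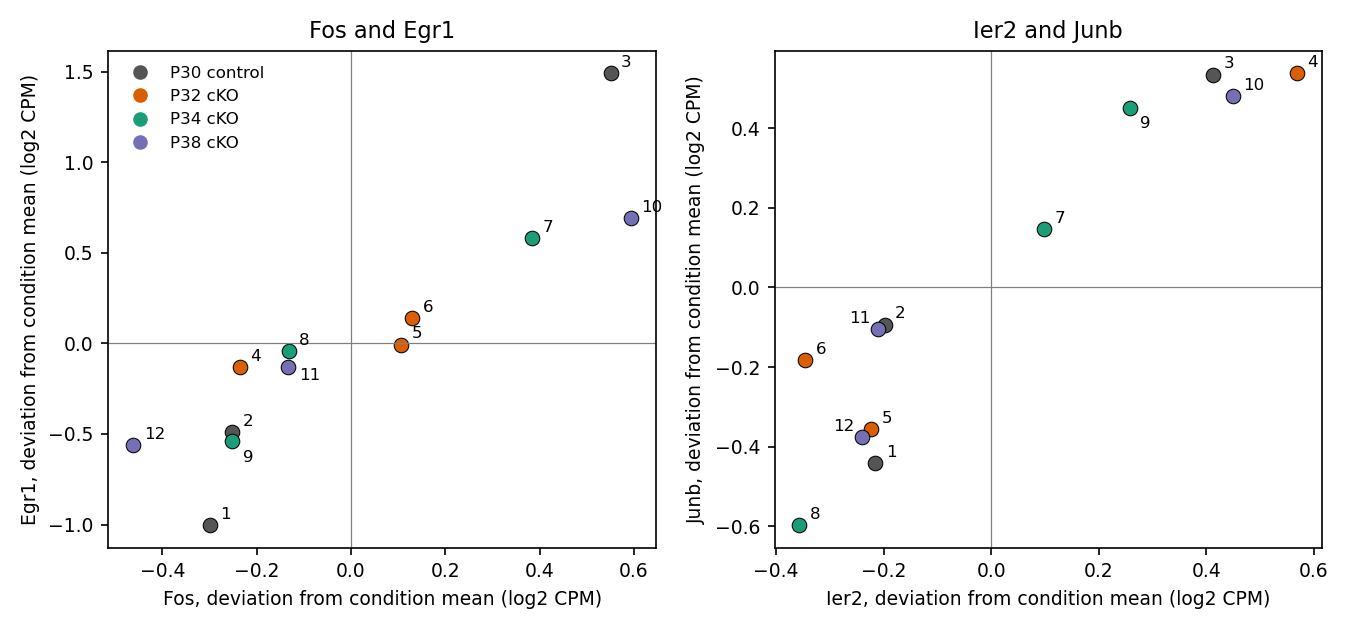
Deviation of each mouse from its condition mean in log2 CPM for *Fos* (horizontal) and *Egr1* (vertical) on the left, and for *Ier2* (horizontal) and *Junb* (vertical) on the right. Each point is 1 mouse, numbered and colored by condition. Mice 3, 7 and 10 are highest for *Fos* and *Egr1*, while mice 3, 4, 9 and 10 are highest for *Ier2* and *Junb*.

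Genes that work around the immediate early response were taken as 7 lists with 113 genes, of which 108 were tested. They too were chosen with earlier results of these libraries known. None was called at P32, P34 or P38 by edgeR, and DESeq2 called 1 higher at P32 (*Dusp1*, beside 0.0486% of all genes), 1 higher at P34 (*Sik1*, beside 0.0641%) and none at P38 (beside 0.059% higher and 0.193% lower). At an unadjusted p, 3 of the 108 were higher and 3 lower at P32, beside 1.13% and 1.77% of all genes. At P34, 3 were higher and 1 lower, beside 0.854% and 5.42%, and at P38 none was higher and 1 was lower, beside 0.805% and 2.66%. Their median log2 fold change was 0.02, 0.05 and -0.01 at P32, P34 and P38. Above all P30 mice lay 12, 24 and 10 of the 108 at the 3 ages, beside 5.26%, 10.4% and 8.23% of all genes, and below lay 9, 7 and 13, beside 4.39%, 9.67% and 7.96%.

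The feedback inhibitors held the list gene whose levels over the 12 mice had the highest r (0.87) to the mean of the immediate early genes. *Dusp1*, a phosphatase that inactivates MAP kinases, measured 13.1, 13.7 and 17.0 CPM in P30 mice 1, 2 and 3 and 31.6, 29.9 and 30.0 CPM in P32 mice 4, 5 and 6. P34 mice 7, 8 and 9 measured 28.4, 19.1 and 20.0 CPM, and P38 mice 10, 11 and 12 measured 17.4, 9.92 and 10.96 CPM. The P32 and P34 mice were all above the P30 mice, with log2 fold changes of 1.07 ± 0.21 and 0.63 ± 0.21 (SE). *Sik1*, a kinase induced by cAMP that restrains CREB coactivators, measured 8.64 to 13.5 CPM in P30 mice, 11.9, 16.6 and 19.3 CPM in P32 mice 4, 5 and 6, 14.6 to 20.4 CPM in P34 mice and 8.69 to 9.52 CPM in P38 mice, with log2 fold changes of 0.55 ± 0.20 at P32 and 0.71 ± 0.20 at P34. The P32 mice overlapped the P30 mice and the P34 mice were all above them. At P32 *Sik1* no longer passed the unadjusted threshold without mouse 2 or mouse 6, and at P34 *Dusp1* did not without mouse 7 (0.42). In the other direction, *Nab2*, a corepressor of EGR factors, measured 23.3, 20.5 and 14.0 CPM at P30 and 9.72, 12.0 and 11.2 CPM at P32 (log2 fold change -0.81 ± 0.23). *Spred2*, an inhibitor of the Ras and MAP kinase pathway, measured 13.8 to 17.4 CPM at P30 and 7.77 to 11.8 CPM at P32 (-0.59 ± 0.18, and -0.42 without P32 mouse 4, which did not pass the unadjusted threshold). Of the 22 feedback inhibitors tested, 2 passed the unadjusted threshold upward and 2 downward at P32, beside 1.13% and 1.77% of all genes (median log2 fold change of the list 0.11). At P34 2 passed upward, beside 0.854% (median -0.03), and at P38 none did, beside 0.805% upward and 2.66% downward (median -0.15).

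Among other early transcription factors (17 tested), *Egr4*, a further EGR factor of neurons, had 5 to 7 counts at P30, 9 to 20 at P32 and 5 to 15 at P34. Its log2 fold change was 1.44 ± 0.47 (SE) at P32 and 1.23 ± 0.48 at P34, from these few counts. The unadjusted threshold was no longer passed without mouse 6 at P32 (1.14), nor without any of mice 1, 2, 7 and 8 at P34. *Nr4a3*, a relative of *Nr4a1*, measured 4.59, 2.26 and 2.23 CPM at P30 and 1.12, 1.69 and 0.747 CPM at P38, a log2 fold change of -1.35 ± 0.42 (-0.91 without P30 mouse 1, past the unadjusted threshold only with it), while P32 mice overlapped P30. *Klf2* and *Klf4*, zinc finger factors of vessel lining and epithelium, had log2 fold changes of -0.60 ± 0.44 and -0.58 ± 0.27 at P38, and *Klf4* of -0.52 ± 0.27 at P34, each below all P30 mice. At P38, 6 of the 17 lay below all P30 mice and none above (7.96% of all genes lay below), and the median of the list was 0.09, 0.17 and -0.15 at P32, P34 and P38. Of the 7 AP-1 partners tested none passed the unadjusted threshold at these ages, beside 1.13% of all genes upward and 1.77% downward at P32. The shares were 0.854% and 5.42% at P34 and 0.805% and 2.66% at P38. Among these partners *Fosl2* measured -0.55 ± 0.26 at P32 and *Mafg* -0.33 ± 0.17 at P34 on the log2 scale.

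The activity-regulated effectors (18 tested), upstream transcription factors (16) and kinases (20) had median log2 fold changes of -0.04, -0.13 and -0.07 at P32. At P34 these were 0.04, 0.03 and 0.11, and at P38 0.01, 0.07 and 0.09. *Ccn2*, a matricellular protein gene, lay above all P30 mice at P32 (0.50 ± 0.24, SE). *Pcsk1*, a convertase of prohormones, and *Mef2c*, a calcium-responsive factor, lay above all P30 mice at P38 (0.48 ± 0.21 and 0.44 ± 0.14). *Rps6ka2*, a kinase downstream of ERK, measured 74.7, 89.5 and 97.1 CPM in P30 mice, against 37.8, 71.5 and 70.8 CPM in P32 mice. P34 mice measured 107, 102 and 98.6 CPM, and P38 mice measured 121, 117 and 110 CPM. It was therefore below all P30 mice at P32 and above them later. Of the 54 genes of these 3 lists, 1 (*Rps6ka2*) passed the unadjusted threshold against P30, downward at P32, where 1.77% of all genes did. Without P32 mouse 4 its log2 fold change there was -0.29 and no longer passed, against -0.54 with it. None passed upward at P32 (beside 1.13%) or in either direction at P34 (0.854% upward, 5.42% downward) and P38 (0.805% and 2.66%).

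**Figure D5:**
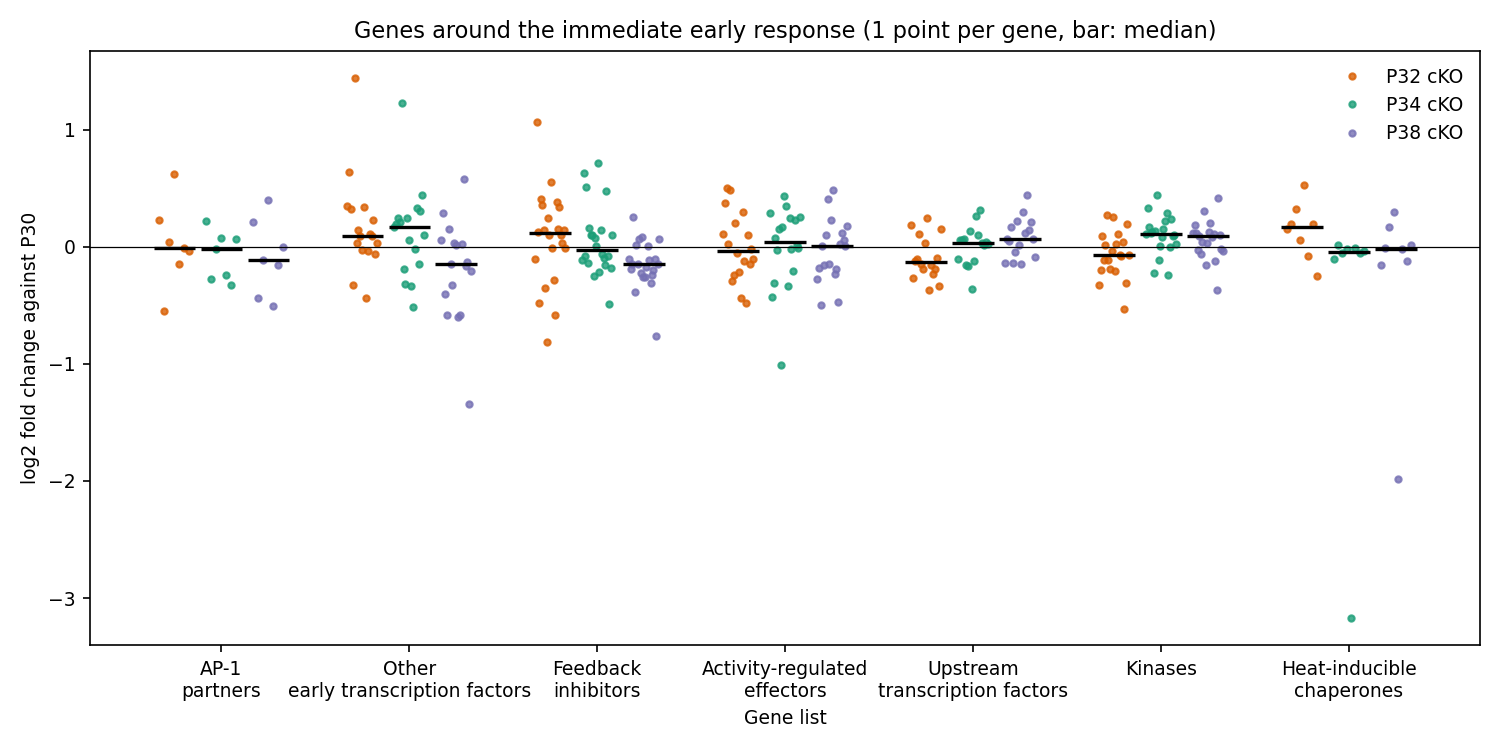
Log2 fold change against P30 (vertical axis) of 108 genes in 7 lists (horizontal axis) at P32, P34 and P38. Each point is 1 gene and each bar the median of a list. Most genes lie close to 0, with *Egr4* (1.44) and *Dusp1* (1.07) highest at P32, *Nr4a3* at -1.35 at P38 and *Hspb1* at -3.17 at P34 (-0.96 without P30 mouse 3).

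The genes whose pattern over the 12 mice was most like that of the 9 immediate early genes were found by Pearson's r to the mean of their standardized log2 CPM, among 14808 genes with a mean of at least 1 CPM. In order they were *Smtnl2* (r = 0.89), *Nup62* (0.88), *Dusp1* (0.87), *Slc41a3* (0.83), *BC030867* (0.81), *Rftn1* (0.81), *Phf13* (0.80), *Ints5* (0.80), *Rgmb* (0.80) and *4930452B06Rik* (0.79). *Dusp1* had the third place, and *Dusp6*, another MAP kinase phosphatase, had r = 0.77 (place 14), *Csrnp1*, an early nuclear protein gene, 0.76 (place 17) and *Srf* 0.69 (place 65). *Smtnl2* measured 1.47 to 2.14 CPM in P30 mice and 2.40 to 2.89 CPM in P32 mice, with no overlap, then 1.52 to 2.23 CPM in P34 mice and 1.36 to 1.63 CPM in P38 mice. By Spearman's rho 4 of the 10 stayed in the first 10, and leaving out each mouse kept 4 to 9 (4 without mouse 12). The points share libraries and conditions, so r is a description of likeness in these 12 mice.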

How the data were processed

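Stranded poly-A libraries of 12 retinas were sequenced by the authors as single reads (base calls with bcl2fastq 2.17.1.14), mapped to mm10 with STAR 2.5.3a and counted per Ensembl gene with HTSeq 0.6.1p1, and the authors tested counts with DESeq2. The deposited counts per gene are whole numbers without normalization. Reads on no gene (6.53 to 13.7%), ambiguous or without a unique position (23.7 to 32.2%) stayed out of library sizes. Genes were filtered by edgeR's filterByExpr (18628 kept) and fitted by edgeR 4.0.16 in R 4.3.3 with TMM scaling and 1 mean per condition, with Benjamini-Hochberg adjustment over all genes. Totals of 29701483 to 60145034 counts set the precision of low genes.

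The members, lists and rules were chosen with earlier results of these data known. All members were named, with 3 list genes per direction and age among those with no overlap with P30, genes of a list that were called, and the 10 genes most alike. Symbols and positions came from GENCODE M21 (99.9% of genes), promoters from RefSeq. On simulated counts of P32 against P30 (18408 genes), 63 of 100 changes of 1 on the log2 scale and 91 of 100 of 2 were called, with 14 unchanged genes. These counts were drawn for each gene alone from its fitted spread, with no mouse effect shared between genes. They do not give the share of real changes that would be called. Alternatives were DESeq2 1.42.0, other scaling, prior counts and filters, unadjusted p, *Xist* state, only the conditions compared, and leaving out mice.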

Additional observations from a re-analysis of the deposited data

Results flagged for a closer look

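*Nr4a1* lay on opposite sides of the P30 mice at P32 and P38. Its log2 fold change against P30 was 0.83 at P32, with all 3 mice above the P30 mice (beside 5.26% of all genes). It was -0.44 at P38, with all 3 below them (beside 7.96%). The P38 value did not pass the unadjusted threshold and was -0.18 without P30 mouse 3. *Rps6ka2*, a kinase downstream of ERK, lay the other way, with -0.54 at P32 (all 3 mice below P30, beside 4.39% of all genes). It was 0.23 at P34 and 0.42 at P38 (all 3 above at both ages, beside 10.4% and 8.23%). Without P32 mouse 4 its P32 value was -0.29 and did not pass the unadjusted threshold, nor did its values at P34 and P38. Compared directly, P38 differed from P32 by -1.26 ± 0.19 for *Nr4a1* and 0.95 ± 0.20 for *Rps6ka2* (log2 fold change, SE). Neither was called by edgeR's quasi-likelihood test in the main fit. Both were called without the filter on low counts and without P32 mouse 6, where 201 and 1946 genes were called in all. Both passed the unadjusted threshold, beside 6.23% of all genes lower and 5.68% higher, and DESeq2 called both, beside 2.41% lower and 2.85% higher. These genes were taken with their values known, *Nr4a1* for P32 above all, so nothing is read from these calls. The comparisons with P30 share the P30 mice.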

How the results depend on the processing

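No paired analysis was possible because the mice carry numbers from 1 to 12 with none shared between conditions. Counts are given in the order P32, P34 and P38 against P30, then P34 against P32, P38 against P32 and P38 against P34, where the main counts of all genes called were 0, 123, 0, 45, 0 and 37, and those of members and list genes were 0 throughout. With an unadjusted p the counts of all genes were 540, 1168, 645, 2687, 2220 and 709, of members 3, 1, 0, 1, 3 and 2, and of list genes 6, 4, 1, 13, 16 and 9. Without the filter on low counts they were 23, 298, 18, 656, 201 and 115 for all genes, with 3 and 1 members in the last 2 comparisons, and list genes 1 at P32 against P30 and 7, 5 and 2 between cKO ages. DESeq2 gave 27, 358, 47, 1406, 913 and 147 genes, 1 member at P32 and 2 in each of the last 2 comparisons, and list genes 1, 1, 0, 8, 11 and 4. With only the conditions compared, P34 against P30 gave 229 genes and the cKO comparisons 11, 1 and 71, with 1 list gene in the last. *Xist* state as a covariate gave 92 genes between P34 and P32. A covariate for lens RNA, added once the data had been seen, gave 58 genes at P34 against P30, 10 between P34 and P32 and 12 between P38 and P34. Without mice 4, 7 and 10, likewise added after seeing the data, 1 and 33 genes were called at P32 and P34 against P30, 13, 1 and 7 between cKO ages, and 1 list gene at P38 against P32. The cause was not tested in any of these.

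Leaving out each mouse gave 0 to 19 genes at P32 (highest without P30 mouse 1), 43 to 213 at P34 (lowest without P34 mouse 8, highest without P32 mouse 6) and 0 to 13 at P38 (highest without P30 mouse 1). It gave 14 to 2726 between P34 and P32, 0 to 1946 between P38 and P32, and 8 to 58 between P38 and P34, lowest without P34 mouse 8 in the first and last and highest without P32 mouse 6 in each. Members called were 0 to 2 and list genes 0 to 17 between P38 and P32, and list genes 0 to 18 between P34 and P32, each highest without P32 mouse 6. Of 1134 alternative values of the members' log2 fold changes, 1120 moved by less than 1 SD of the mice, and 14 by more. A small value can change sign within this limit. *Npas4* did so between P34 and P32 in 8 of 21 alternatives, and *Ier2* at P38 against P30 in 5 of 21. *Fos* at P32 ranged from 0.91 to 1.39, *Egr1* from 1.15 to 2.69 and *Nr4a1* from 0.70 to 1.08, and at P38 *Nr4a1* from -0.56 to -0.18. The floor of 3 counts is 0.0473 to 0.102 CPM here, which limits *Egr2*.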

Other observations

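Heat-inducible chaperones, which cells raise on protein damage, were the remaining list around the stress side of the early response (8 tested). Their median log2 fold change was 0.17, -0.05 and -0.02 at P32, P34 and P38, and none was called by edgeR. At an unadjusted p, 1 of the 8 (*Hspb1*) was lower at P34, beside 5.42% of all genes, and none was higher, beside 0.854%. None passed at P32, beside 1.13% higher and 1.77% lower, or at P38, beside 0.805% and 2.66%. *Hspa1a*, the inducible HSP70, measured 12.1 to 13.0 CPM at P30 and 20.0, 10.9 and 12.4 CPM in P32 mice 4, 5 and 6, and *Hspa1b*, its near-identical neighbour, measured 7.15 to 7.55 CPM at P30 and 12.7, 7.21 and 7.57 CPM in the same P32 mice. Reads on both copies are uncertain, since reads without a unique position were not counted. P32 mouse 4 was the highest of the series for both genes, as it was for *Ier2* and *Junb*, and it had the largest share of reads without a unique position (32.2%).

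*Hspb1*, a small heat shock protein of lens, muscle and glia, measured 1.31, 1.01 and 14.2 CPM in P30 mice 1, 2 and 3. It measured 10.5, 12.1 and 0.863 CPM in P32 mice 4, 5 and 6, 0.490 to 0.801 CPM at P34 and 0.868 to 1.65 CPM at P38. The log2 fold change at P34 was -3.17 ± 1.09 (SE), with all 3 mice below P30, and -0.96 ± 0.81 without P30 mouse 3. The mice with 10 CPM or more of *Hspb1* (3, 4 and 5) were those whose lens markers summed to 33722, 39415 and 28734 CPM, against at most 12361 CPM in the other 9 mice. Its relation to lens RNA was not tested.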
